A study of Mus musculus with 27 samples.

Results

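The genes described here are 8 genes of gluconeogenesis, the making of glucose from lactate, amino acids and glycerol: the enzymes and transporter Pck1, G6pc, Slc37a4, Fbp1 and Pcx, and the regulators Ppargc1a, Creb3l3 and Foxo1. They were chosen by name, as 8 of the 21823 genes in the expression table, and all 8 passed the filter on low values that left 12952 genes. Their RNA was followed across the 3 lobular zones of the liver of female wild-type C57BL/6 mice (C57BL/6N in the study's methods), taken without pregnancy (NP), on day 8 of pregnancy (dpc8) and on day 16 (dpc16), counted in days post coitum. All 9 groups share strain, genotype and sex, and no group received a treatment. Zone 1 surrounds the portal vein, zone 3 surrounds the central vein, and zone 2 lies between. Tissue of each zone was excised from frozen sections by laser microdissection and sequenced after removal of ribosomal RNA, with 3 libraries per stage and zone and 27 in all. The non-pregnant mice were virgins, and the pregnancies were not manipulated. The labels do not tie libraries to single mice, so p-values measure the spread between libraries. Neither the feeding state nor the hour of collection of these mice is given in the sources used here.

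The pathway runs largely against glycolysis and needs its own enzymes at the irreversible steps. Pcx, pyruvate carboxylase, makes oxaloacetate from pyruvate in mitochondria, and Pck1, the cytosolic phosphoenolpyruvate carboxykinase, turns oxaloacetate into phosphoenolpyruvate. Fbp1, fructose-1,6-bisphosphatase, removes a phosphate further along. Slc37a4 carries glucose 6-phosphate into the endoplasmic reticulum, where G6pc, the catalytic subunit of glucose 6-phosphatase, releases free glucose. Fasting raises the pathway through glucagon and cAMP, and insulin lowers it by keeping the transcription factor FOXO1 out of the nucleus. PGC-1α, encoded by Ppargc1a, is a coactivator of this program, and CREB3L3 (CREBH) is a membrane-bound transcription factor of hepatocytes that is active in fasting. In the liver lobule, gluconeogenesis is known as a periportal function.

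Pck1 and G6pc are classical targets of cAMP and insulin signalling, and Fbp1 had the smallest adjusted p among the members in the comparison of zones, so the DNA before their start sites is shown. The sequences are those of RefSeq (build GRCm38.p6), which held a promoter for each of the 8 genes, and each is printed up to the start of the GENCODE vM21 gene. Capitals mark letters that match a searched motif on either strand. The Pck1 stretch is chr2:173152823-173153047 (plus strand), the G6pc stretch chr11:101367466-101367560 (plus strand) and the Fbp1 stretch chr13:62888283-62888532 (minus strand).
Pck1: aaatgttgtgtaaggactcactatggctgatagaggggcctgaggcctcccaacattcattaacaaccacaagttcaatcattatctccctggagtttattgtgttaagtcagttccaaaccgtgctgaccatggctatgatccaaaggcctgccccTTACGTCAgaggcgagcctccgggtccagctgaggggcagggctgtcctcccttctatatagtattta
G6pc: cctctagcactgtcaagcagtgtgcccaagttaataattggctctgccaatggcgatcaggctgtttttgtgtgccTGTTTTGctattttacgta
Fbp1: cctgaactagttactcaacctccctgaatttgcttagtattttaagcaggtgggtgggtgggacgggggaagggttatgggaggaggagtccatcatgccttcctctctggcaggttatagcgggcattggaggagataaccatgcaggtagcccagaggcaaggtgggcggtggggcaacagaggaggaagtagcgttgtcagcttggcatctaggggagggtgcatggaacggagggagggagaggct
In the 250 bases before the RefSeq start, Pck1 held TTACGTCA, a variant of the cAMP response element, at positions -93 to -86, a word held by 0.447% of 32851 promoters. G6pc held the insulin response core CAAAACA, on its minus strand at -174 to -168, and a TATA match (TATAAA) at -29 to -24, which lies past the printed stretch. The core word was in 5.56% of all promoters and also at 1 of 2 Creb3l3 starts, and the TATA word was in 12.4% and also at 1 of 3 Slc37a4 starts. An E-box, CACGTG, was found in 6.02% of promoters and at 1 of 2 Pcx starts. The windows of Fbp1, Ppargc1a and Foxo1 held none of the 7 words searched, and the words TGACGTCA (1.55% of promoters), GTAAACA (3.17%, a FOXO site) and TTATGTAA (0.819%, a D-box) were in none of the members' windows. These matches describe the letters only.

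Levels are given as FPKM, in which the read count is divided by the length of the transcript and by the depth of the library, so that genes can be compared. The estimated depth was 7.53 M to 33.33 M mapped reads per library. All 7 periportal markers were called higher in zone 1 than in zone 3 over the stages and all 8 pericentral markers lower. In 6 libraries, however, 4 genes of the Y chromosome summed to 7.92 to 23.2 FPKM although all mice are labelled female, against at most 2.97 FPKM in the other 21. The same libraries had the highest connective tissue and smooth muscle signal, 1379 to 6335 summed FPKM over 12 genes, against 94.4 to 695 in the others. Called the Y-positive libraries below, they were replicate 1 of zone 1 and replicate 2 of zone 3 at NP, replicate 1 of zone 1 and replicate 2 of zone 2 at dpc8, and replicate 3 of both zones 2 and 3 at dpc16. Their summed hepatocyte markers (6 genes) ranged from 49817 to 92016 FPKM, against 57678 to 276352 in the others. In the 2 dpc16 libraries among them all 8 members had the lowest value of their group. In bulk tissue, fewer hepatocytes and less RNA of a gene per hepatocyte cannot be told apart.

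The 8 genes spanned a wide range of levels. Pck1 (ENSMUSG00000027513.11, chr2:173153048-173159273, mm10, plus strand) ranged from 106 to 2196 FPKM over the 27 libraries, and Fbp1 (ENSMUSG00000069805.10, chr13:62864753-62888282, minus strand) from 195 to 1515. Pcx (ENSMUSG00000024892.17, chr19:4510472-4621752, plus strand) lay between 70.8 and 341 and Creb3l3 (ENSMUSG00000035041.8, chr10:81084324-81098874, minus strand) between 50.7 and 255. G6pc (ENSMUSG00000078650.2, chr11:101367561-101377903, plus strand) ranged from 17.3 to 359 and Slc37a4 (ENSMUSG00000032114.9, chr9:44396852-44402968, plus strand) from 21.2 to 108. The coactivator gene Ppargc1a (ENSMUSG00000029167.13, chr5:51454250-51567726, minus strand) and Foxo1 (ENSMUSG00000044167.6, chr3:52268336-52353221, plus strand) were far lower, at 0.876 to 11.7 and 3.98 to 15.9 FPKM. Pcx overlaps the protein-coding gene Lrfn4 on the other strand, which had a median of 0.111 FPKM and at most 5.66. Foxo1 overlaps the antisense gene Gm20402, and Ppargc1a overlaps 4 predicted genes, of which Gm42613 lies on the other strand. The dpc16 zone 1 group held no Y-positive library. At dpc16, Pcx and Creb3l3 averaged 259 and 218 FPKM in zone 1, and 263 and 235 in zone 2 without its Y-positive library. Ranked by group mean of all libraries, the zone 1 group of dpc16 was highest for 6 of the 8 genes, including these 2. In that ranking of 9 groups, neighbouring groups overlapped in all 8 steps for 6 genes, and in 7 of 8 steps for Fbp1, whose dpc16 zone 1 values stood above those of NP zone 1, and for Ppargc1a, whose dpc16 zone 3 values stood below those of dpc8 zone 3.

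**Figure D1:**
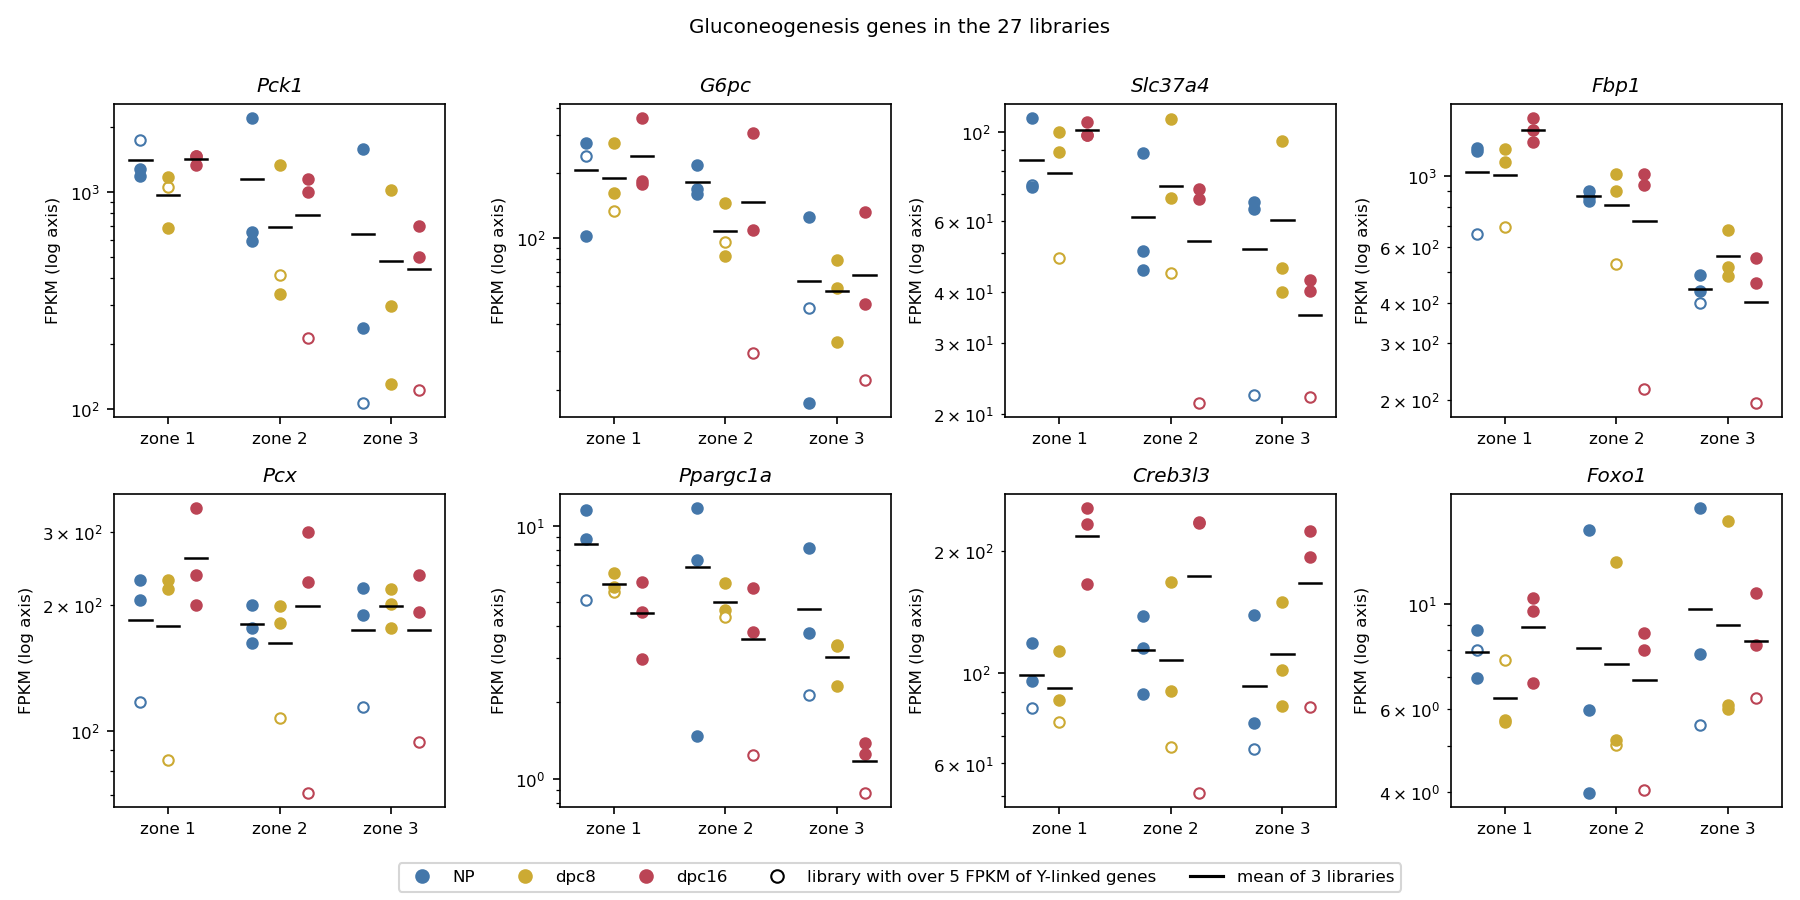
FPKM (log axis) of the 8 genes in each library, by zone (horizontal axis) and stage (colour), with a black bar for the mean of 3 libraries and open circles for the 6 Y-positive libraries. The means of Pck1, G6pc, Slc37a4, Fbp1 and Ppargc1a step down from zone 1 to zone 3 at all 3 stages, those of Pcx at NP and dpc16 but not at dpc8, those of Creb3l3 at dpc16 only and those of Foxo1 at no stage, and the open circles at dpc16 lie at the bottom of their groups. Without the open circles, no such steps through zone 2 remain for Pcx, for Creb3l3, for Slc37a4 at NP or for Ppargc1a at dpc16.

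The first question was whether these genes were zoned. Averaged over the stages, 5 of the 8 were higher in zone 1 than in zone 3 and none was called lower, where 5.59% of all genes were called in either direction and 2.7% as higher in zone 1. The 5 were G6pc, Pck1, Fbp1, Slc37a4 and Ppargc1a, that is, the cytosolic and endoplasmic reticulum steps and the coactivator. The mitochondrial enzyme gene Pcx and the transcription factor genes Creb3l3 and Foxo1 did not pass. The median log2 difference was 0.96 for the 8 genes and 0.04 for all genes tested. All differences below are in log2(FPKM + 1), which understates changes of weakly expressed genes such as Ppargc1a.

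G6pc had the largest difference, 1.93 ± 0.41 (SE), or 3.82-fold, with an adjusted p of 0.00458. Its values in zone 1 were 241, 275 and 103 FPKM in the 3 NP libraries, 134, 276 and 163 at dpc8 and 359, 179 and 184 at dpc16. In zone 3 they were 125, 47.8 and 17.3 at NP, 79.8, 59.0 and 33.2 at dpc8 and 132, 49.5 and 22.3 at dpc16. The zones did not overlap at dpc8 and dpc16, and at NP a zone 1 library (103) fell below a zone 3 library (125).

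Pck1, the classical rate-controlling step, differed by 1.84 ± 0.51 (3.57-fold, adjusted p 0.0342). Zone 1 held 1746, 1184 and 1282 FPKM at NP, 1060.0, 1175 and 682 at dpc8 and 1336, 1476 and 1465 at dpc16. Zone 3 held 1588, 106 and 235 at NP, 1022, 297 and 129.7 at dpc8 and 699, 504 and 122 at dpc16. The values spread more widely in zone 3 than in zone 1, and its replicate 1 was the highest at each stage, reaching the zone 1 range at NP and dpc8. The zones were separate only at dpc16. Without the 6 Y-positive libraries the averaged difference was 1.22 and its adjusted p 0.163, which missed the threshold.

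Fbp1 had a smaller difference and a smaller error, 1.30 ± 0.26 (2.45-fold, adjusted p 0.00264). In zone 1 its values were 658, 1227 and 1201 at NP, 695, 1106 and 1214 at dpc8 and 1515, 1391 and 1278 at dpc16. In zone 3 they were 489.7, 399.9 and 437, 679.6, 488 and 520.0 and 463, 556 and 195 at the same stages. Zone 1 lay above zone 3 at every stage. At NP and dpc8 the lowest zone 1 value was that of a Y-positive library, and without the 6 such libraries every zone 1 value of any stage was above every zone 2 value, and every zone 2 value above every zone 3 value.

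Slc37a4, the transporter that feeds glucose 6-phosphatase, differed by 0.94 ± 0.27 (1.92-fold, adjusted p 0.0449). Zone 1 gave 73.6, 73.0 and 108 at NP, 48.7, 99.8 and 88.9 at dpc8 and 98.03, 106 and 98.1 at dpc16, and zone 3 gave 64.2, 22.2 and 66.7, 94.8, 45.9 and 40.1 and 40.4, 42.9 and 22.0. The zones were apart at NP and dpc16 and overlapped at dpc8, where replicate 1 of zone 1 is Y-positive and replicate 1 of zone 3 lay within the zone 1 range. With no filter on low values the call was lost (adjusted p 0.062).

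Ppargc1a followed the enzymes, with 0.97 ± 0.28 (1.96-fold, adjusted p 0.0386). Its FPKM in zone 1 were 5.06, 11.5 and 8.85 at NP, 5.48, 5.69 and 6.49 at dpc8 and 2.97, 5.99 and 4.57 at dpc16. In zone 3 they were 8.15, 2.14 and 3.75, 3.33, 2.33 and 3.37 and 1.38, 1.25 and 0.876. The zones were apart at dpc8 and dpc16 and overlapped at NP. The call was lost without the Y-positive libraries (adjusted p 0.0602), with quantile normalization (0.129) and with no filter on low values (0.0501).

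The 3 remaining genes had intervals around 0. The 95% interval of the averaged zone 1 minus zone 3 difference was -0.42 to 0.70 for Pcx (0.14), -0.45 to 0.70 for Creb3l3 (0.13) and -0.64 to 0.36 for Foxo1 (-0.14), so for each a difference of 1 in either direction lay outside the interval. Group means of Pcx were 184 ± 59.2 FPKM (SD, n = 3) in zone 1 and 174 ± 54.7 in zone 3 at NP, and 259 ± 73.4 and 174 ± 72.7 at dpc16. At dpc8 the order was the reverse, with 178 ± 80.5 in zone 1 and 199 ± 21.1 in zone 3. Foxo1 had 7.92 ± 0.907 in zone 1 and 9.76 ± 5.45 in zone 3 at NP, and its SD in zone 3 came from replicate 1 (15.9 FPKM, against 5.55 and 7.82). The sign for Creb3l3 turned to -0.01 without the Y-positive libraries.

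The calls of G6pc and Fbp1 over the stages held in all 18 fits that each left out 1 zone 1 or zone 3 library. Pck1 passed in 6 of these 18 fits, on leaving out replicate 2 of zone 1 or 1 of zone 3 at NP, replicate 3 of zone 1 or 1 of zone 3 at dpc8, or replicate 1 or 2 of zone 3 at dpc16, and its adjusted p reached 0.0874. Slc37a4 passed in 4, on leaving out replicate 1 or 3 of zone 3 at NP or replicate 1 of zone 1 or of zone 3 at dpc8, with an adjusted p of up to 0.104. Ppargc1a passed in 3, on leaving out replicate 1 of zone 1 or of zone 3 at NP or replicate 1 of zone 1 at dpc16, with an adjusted p of up to 0.0857.

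Within single stages the members seldom passed the test. At NP 0 of 8 were called (1.34% of all genes), at dpc8 0 (1.61%) and at dpc16 1 (1.55%), Fbp1, with 1.91 ± 0.45 (adjusted p 0.0268). At an unadjusted p under 0.05 there were 3, 1 and 5 members at NP, dpc8 and dpc16. With libraries of the same number taken as paired, G6pc also passed at dpc16, with 2.09 ± 0.45 and an adjusted p of 0.0167. The same fit called it at NP (adjusted p 0.0271) and at dpc8, stages at which the numbers were not found to pair zones 1 and 3. Fbp1 at dpc16 passed in 1 of 6 fits that left out a library, without dpc16 zone 3 replicate 2. Its difference was 1.45 (adjusted p 0.225) without the Y-positive zone 3 replicate 3, and the adjusted p was 0.116, 0.0972 and 0.074 without zone 1 replicates 1, 2 and 3 and 0.0525 without zone 3 replicate 1. The interval of each single-stage difference was wide: for Pck1 it was 0.19 to 3.85 at NP, -0.36 to 3.30 at dpc8 and 0.19 to 3.85 at dpc16.

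**Figure D2:**
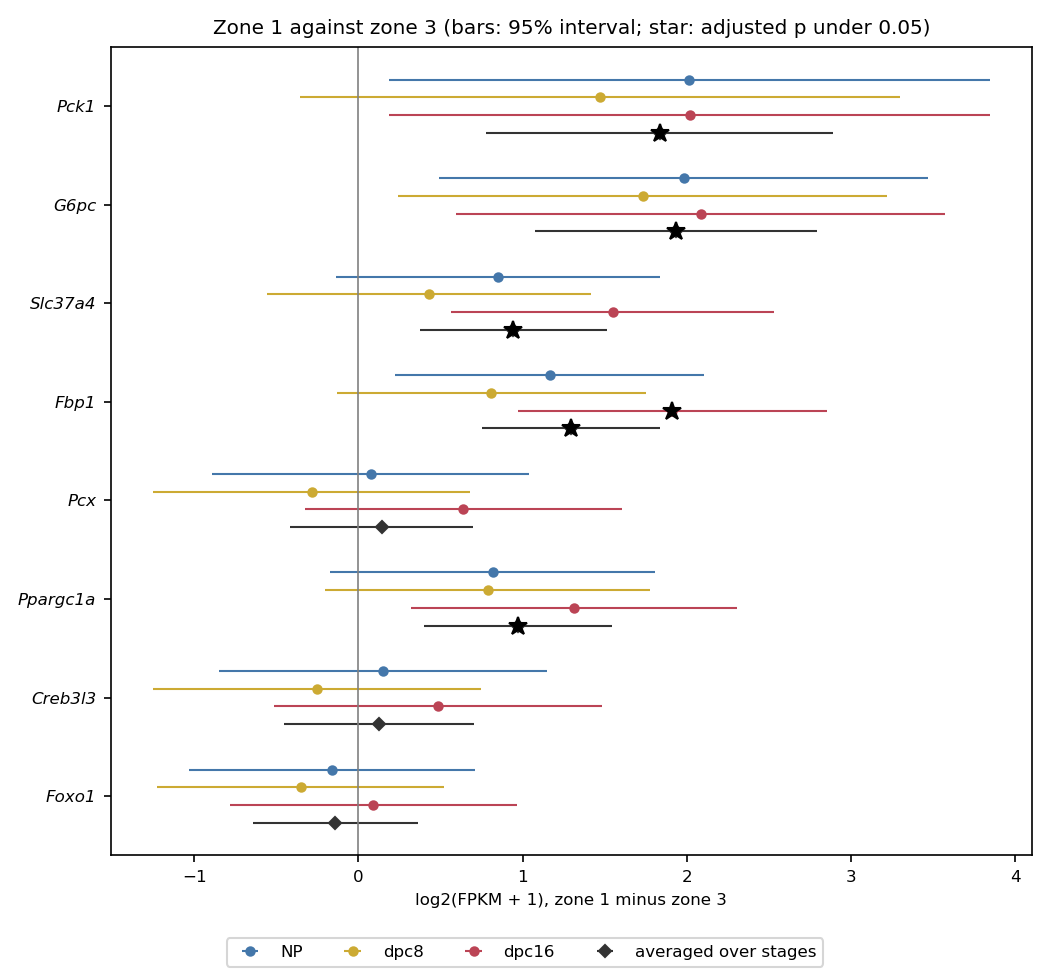
Zone 1 minus zone 3 difference in log2(FPKM + 1) for each gene, at NP, dpc8 and dpc16 (circles) and averaged over the stages (black diamonds), with 95% intervals and stars where the adjusted p was under 0.05. The averaged values of Pck1 and G6pc stand near 1.9, those of Fbp1, Ppargc1a and Slc37a4 between 0.94 and 1.30, and those of Pcx, Creb3l3 and Foxo1 near 0.

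Zone 2 lay between for the zoned enzymes. Group means of G6pc at NP were 206 ± 91.4, 183 ± 31.4 and 63.4 ± 55.6 FPKM in zones 1, 2 and 3 (SD, n = 3), and those of Fbp1 were 1029 ± 321, 864 ± 32.7 and 442 ± 45.1. Neither step of the gradient gave a call. Of the 8 members 0 passed between zones 1 and 2 (0.919% of all genes) and 0 between zones 2 and 3 (1.88%), with 1 and 3 members at an unadjusted p under 0.05. With the replicate numbers as a block, G6pc passed between zones 2 and 3, where 3.2% of all genes did. Counts in the other settings are given below. Whether pregnancy altered the zone 1 minus zone 3 difference was tested directly, and 0 members passed for dpc8 against NP (0% of all genes) and 0 for dpc16 against NP (0.054%), none at an unadjusted p under 0.05. At dpc16 this change of the difference ranged from 0.00 (Pck1) to 0.74 (Fbp1), positive for all 8 genes, and at dpc8 from -0.54 (Pck1) to -0.03 (Ppargc1a). Both rest on the same NP libraries. The Y-positive library of these zones was replicate 3 of zone 3 at dpc16 and replicate 1 of zone 1 at dpc8. At NP both zones held such a library. All 8 members were lowest of their group in the dpc16 library, and 6 of 8 in the dpc8 library, so the Y-positive library lay on opposite sides of the difference at these stages.

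The other lists of the pathway are set beside the share of all genes called over the stages, 2.7% higher in zone 1 and 5.59% in either direction. Of 11 reversible enzymes and shuttle enzymes, which serve both gluconeogenesis and glycolysis, 5 were higher in zone 1 over the stages and 0 lower, with a median of 0.47. Among them were Got1 (1.47, adjusted p 0.00438), a transaminase that returns oxaloacetate to the cytosol, Eno1 (0.93), Gpi1 (0.91) and Gapdh (0.71). Of 13 genes of substrate entry, 1 was higher and 0 lower, with a median of 0.03. The gene was Sds, which makes pyruvate from serine, with 405 ± 75.2 FPKM in zone 1 and 2.48 ± 2.08 in zone 3 at NP (SD, n = 3) and a difference of 6.96 (adjusted p 1.71e-12). No alanine transaminase, lactate dehydrogenase or mitochondrial pyruvate carrier gene passed.

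Genes that oppose glucose output differed in direction. Pfkfb1, which makes and breaks down a regulator of glycolysis, was lower in zone 1 (-0.90, adjusted p 0.0221), whereas Pklr, the liver pyruvate kinase, was higher (1.29, adjusted p 0.00587). Of 13 genes for hormone receptors and transcription control, 0 were higher and 1 lower in zone 1, Esrrg, an orphan nuclear receptor (-2.04, adjusted p 1.40e-06). The glucagon receptor, the insulin receptor, Hnf4a, Cebpa, Creb1 and Crtc2 did not pass. Of 8 tested paralogs of the members, 0 passed. Pck2, the mitochondrial form, had at most 14.02 FPKM in any library against at least 106 for Pck1, Fbp2 had at most 2.34, G6pc3 2.41 to 11.9, and G6pc2 at most 0.299, too low to be tested.

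Other cell types moved with the zones too. Of 5 biliary epithelium markers, 3 were higher in zone 1 over the stages (2.7% of all genes), and their sum ranged from 40.2 to 158 FPKM in zone 1, from 2.34 to 116 in zone 2 and from 0.0884 to 91.6 in zone 3. Of 12 connective tissue genes 0 were higher and 2 lower in zone 1, and of 6 hepatocyte markers 0 passed. The sum of the hepatocyte markers had medians of 105861, 80429 and 60496 FPKM in zones 1, 2 and 3, and without the Y-positive libraries zones 1 and 3 did not overlap at any stage. Alb, 1 of these 6 genes, made up much of the sum, with medians of 62556, 45893 and 28226 FPKM in the same zones. Of 5 Kupffer cell markers, 1 was higher in zone 1 and 0 lower, Clec4f (0.74, adjusted p 0.0338), which was also called at dpc16 (1.69), and the list's sum ranged from 77.4 to 138 FPKM in zone 1 and from 27.7 to 151 in zone 3. With the mean connective tissue signal of each library as a covariate the same number of members, 5, was called, and the part of hepatocyte, biliary and Kupffer cell signals in these differences was not tested.

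The second question was whether pregnancy moved these genes. At dpc8 the test called 0 of 8 members against NP, in zone 1 (0.0309% of all genes), zone 2 (0.00772%), zone 3 (0.0154%) or averaged over the zones (0.108%), and 0 at an unadjusted p under 0.05 in any of the 4. The averaged differences ranged from -0.43 (Pck1, 95% interval -1.48 to 0.63) to 0.12 (Slc37a4, -0.45 to 0.69). For the other members the intervals were -1.08 to 0.64 (G6pc), -0.48 to 0.60 (Fbp1), -0.58 to 0.53 (Pcx), -0.86 to 0.28 (Ppargc1a), -0.57 to 0.58 (Creb3l3) and -0.65 to 0.36 (Foxo1). The dpc8 values of Pck1 in zone 1 (1060.0, 1175 and 682 FPKM) were all below the NP values (1746, 1184 and 1282), with a difference of -0.55 and an unadjusted p of 0.542.

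At dpc16, 1 of 8 members was called against NP averaged over the zones, Ppargc1a, where 11.8% of all genes were called and 6.15% as lower at dpc16. A count of 1 of 8 is near the share of all genes called. In single zones 0 of 8 were called, in zone 1 (1.37%), zone 2 (2.66%) and zone 3 (1.32%), with 1, 0 and 1 members at an unadjusted p under 0.05. The averaged differences of the 5 enzyme and transporter genes ranged from -0.17 (Pck1) to 0.12 (Pcx). Their 95% intervals were -1.23 to 0.88 for Pck1, -1.01 to 0.71 for G6pc, -0.73 to 0.41 for Slc37a4, -0.65 to 0.44 for Fbp1 and -0.43 to 0.68 for Pcx, and Foxo1 had -0.52 to 0.48. The sign of 4 of them turned without the Y-positive libraries, to 0.11 for Pck1, 0.40 for G6pc, 0.17 for Fbp1 and 0.04 for Foxo1.

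Ppargc1a fell by 0.88 ± 0.28 on the log2 scale at dpc16 (adjusted p 0.0404). In zone 3 its values were 8.15, 2.14 and 3.75 FPKM at NP and 1.38, 1.25 and 0.876 at dpc16, with no overlap. Zone 2 had 11.7, 7.31 and 1.47 at NP and 3.80, 5.69 and 1.23 at dpc16, and zone 1 had 5.06, 11.5 and 8.85 and 2.97, 5.99 and 4.57, so both overlapped. The group means at dpc8, 5.89 ± 0.530, 4.99 ± 0.850 and 3.01 ± 0.590 in zones 1, 2 and 3 (SD, n = 3), lay between those of NP and dpc16. The call held without the Y-positive libraries (-0.91, adjusted p 0.0402) and was lost with the replicate numbers as a block (adjusted p 0.136), with quantile normalization (0.107), with only the groups compared (0.105) and with no filter on low values (0.0559). It was kept in 6 of 18 fits that left out a library, those without replicate 1 of zone 1, 3 of zone 2 or 2 of zone 3 at NP, or replicate 2 of zone 1 or 1 or 2 of zone 2 at dpc16, with an adjusted p of up to 0.0953 in the others.

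Creb3l3 differed in the other direction, by 0.75 ± 0.28 (1.68-fold), with an adjusted p of 0.0899 that missed the threshold. In zone 1 the NP values were 82.4, 119 and 95.8 FPKM, the dpc8 values 76.0, 113 and 86.1 and the dpc16 values 233, 255 and 166, with dpc16 above both other stages. In zone 2 they were 139, 89.1 and 116 at NP and 235, 236 and 50.7 at dpc16, and in zone 3 139, 65.3 and 75.3 and 224, 193 and 82.6. In both zones the low dpc16 value is that of the Y-positive replicate 3, and the other 2 stood above all NP values. Without the Y-positive libraries, 6 of them over all stages, the difference was 1.02 with an adjusted p of 0.00107. Leaving out only dpc16 zone 2 replicate 3 gave 0.99 (adjusted p 0.00432), and leaving out only dpc16 zone 3 replicate 3 gave 0.89 (adjusted p 0.0366). It did not pass in the other 16 of 18 fits that left out a library, in which the difference went down to 0.62 and the adjusted p up to 0.179.

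**Figure D3:**
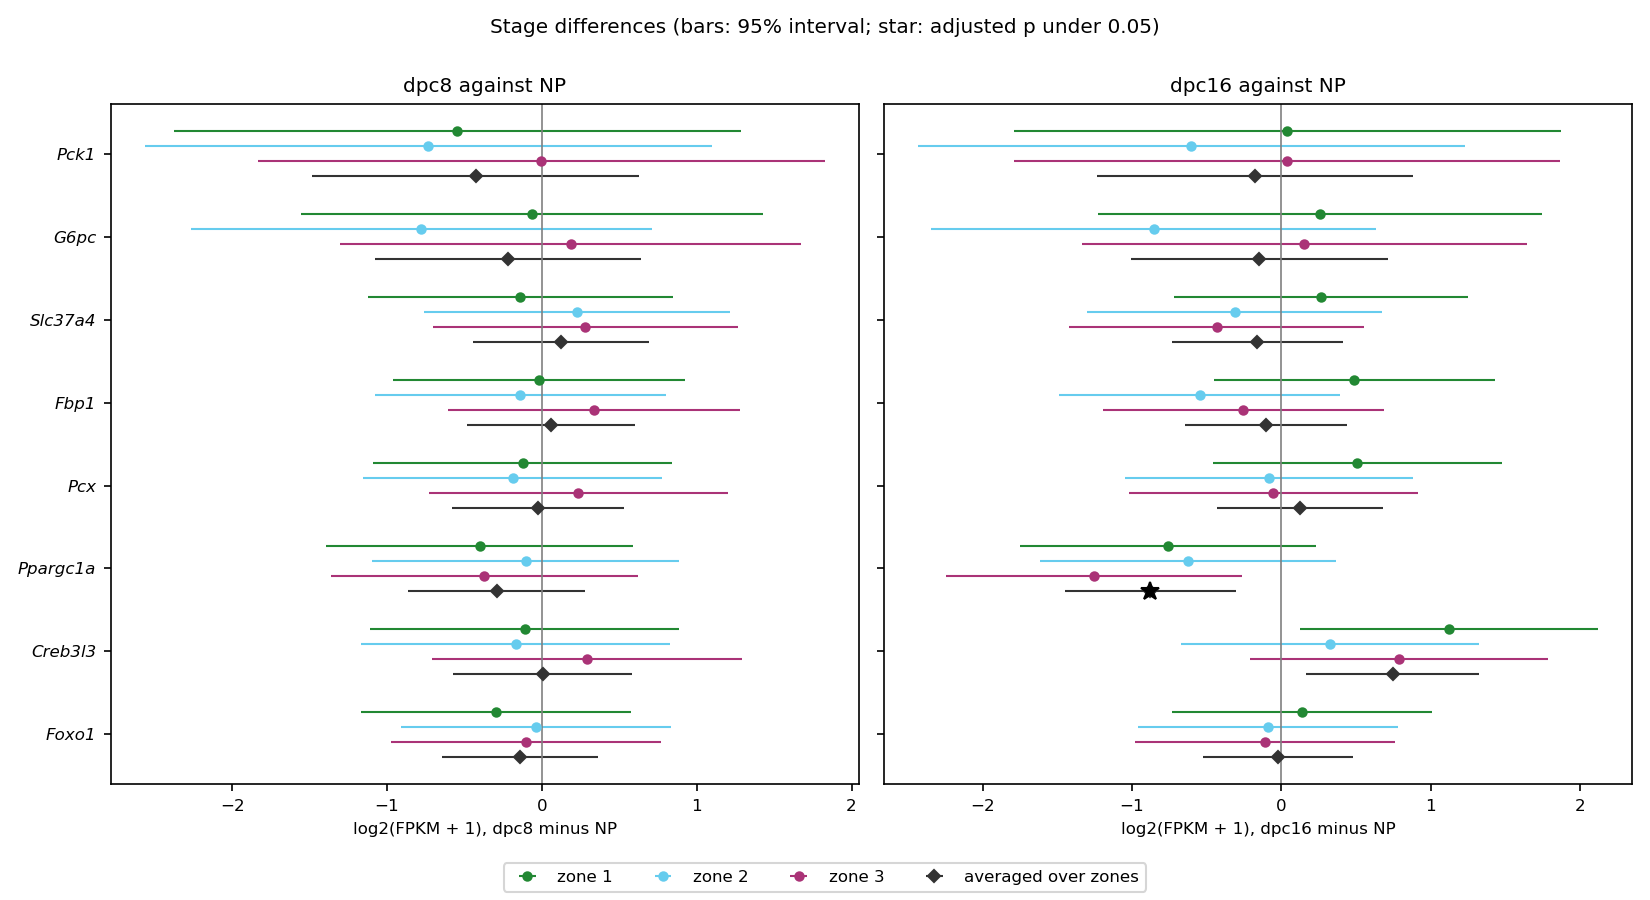
Difference in log2(FPKM + 1) between dpc8 and NP (left) and between dpc16 and NP (right) for each gene, in zones 1, 2 and 3 (circles) and averaged over the zones (black diamonds), with 95% intervals and a star where the adjusted p was under 0.05. At dpc8 all averaged intervals cover 0, and at dpc16 Ppargc1a stands at -0.88 and Creb3l3 at 0.75.

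Between dpc8 and dpc16, 0 of 8 members were called in zone 1 (2.01% of all genes), zone 2 (1.51%), zone 3 (1.37%) or averaged over the zones (11.1%), with 1, 0, 0 and 2 at an unadjusted p under 0.05. The 2 in the averaged comparison were Creb3l3 (0.74, adjusted p 0.0934) and Ppargc1a (-0.59, adjusted p 0.197).

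Genes of the other lists were compared in the same way, against 11.8% of all genes called between dpc16 and NP over the zones. Of 6 genes known as targets of FOXO1 or CREB3L3, 4 were higher at dpc16 than at NP over the zones and 0 lower, with a median of 2.104 against -0.01 for all genes. Apoc2, an apolipoprotein that activates lipoprotein lipase, rose by 2.30 (adjusted p 1.27e-07) and was called in each zone. Its values in zone 3 were 117 to 165 FPKM at NP and 630.2 to 1112 at dpc16. Apoa4 rose by 2.16 (adjusted p 0.00209), Fgf21, a fasting hormone of the liver, by 2.59 (adjusted p 0.00719) and Igfbp1, which binds insulin-like growth factors and is lowered by insulin, by 2.05 (adjusted p 0.0241). In zone 2 Fgf21 ranged from 0.420 to 1.17 FPKM at NP and from 0.160 to 26.9 at dpc16, and at dpc16 replicate 3 was the lowest in every zone, in zone 1 too, where it is not Y-positive. Igfbp1 was likewise low in replicate 3 at dpc16, with 88.5, 24.3 and 61.9 FPKM in zones 1, 2 and 3, within the NP range of 8.98 to 138, against 261 to 555 in the other 6 dpc16 libraries, and its call held in 8 of 9 other settings (adjusted p up to 0.0639). Irs2 and Pdk4, also FOXO1 targets, did not pass. The 4 that passed include targets of both factors, and the same genes have other regulators.

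Among 8 genes that follow feeding, Srebf1 (-2.33), Scd1 (-1.85), Fasn (-1.53) and Acly (-1.32), which serve lipid synthesis, were lower at dpc16, and Plin2 (1.60) and Angptl4 (1.16) higher, the last in 5 of 9 other settings. Replicate 3 of zone 1 at dpc16 stood apart, with 203 FPKM of Srebf1 against 28.6 and 39.7 in the other 2 libraries of its group and 190.7 to 518 in NP zone 1. None of the 8 was called at dpc8.

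Among the members' paralogs, Creb3l2, a relative of Creb3l3, rose at dpc16 in every zone (in zone 3 the call held in 5 of 9 other settings) and by 1.58 on average (adjusted p 1.13e-05). Its zone 1 values went from 4.96 to 8.41 FPKM at NP to 17.0 to 37.8 at dpc16. Ppargc1b, the sister gene of Ppargc1a, fell by 1.08 on the log2 scale (adjusted p 0.0173), a call that held in 8 of 9 other settings (adjusted p up to 0.0561). Foxo3 and Foxo4 did not pass. Of the 11 reversible enzymes 0 were higher and 1 lower at dpc16, Got1 (-0.96, adjusted p 0.0488). In substrate entry, 1 of 13 was higher, Ldha (1.32), a lactate dehydrogenase subunit, and 4 were lower. These were Slc25a11 (-0.52), a mitochondrial oxoglutarate carrier, Gpt (-1.07), an alanine transaminase, Sds (-1.17) and Slc25a10 (-0.57). Among 9 other settings the calls of Got1 held in 5 and those of Sds and Slc25a10 in 6 each. Among the 13 receptors and regulators 0 were higher and 1 lower, the glucocorticoid receptor gene Nr3c1 (-0.54, adjusted p 0.0131, called in 8 of 9 other settings with an adjusted p of up to 0.0755). Of 5 Kupffer cell markers 3 were lower at dpc16 and 0 higher, of 6 hepatocyte markers 3 were higher and 1 lower, and of 5 endothelial markers 0 were higher and 1 lower. The sum of the hepatocyte markers had a median of 79643 FPKM at NP and 223506 at dpc16, and Alb alone had 44042 and 151511. The part of these cell type signals in the members' values was not tested beyond the connective tissue covariate.

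**Figure D4:**
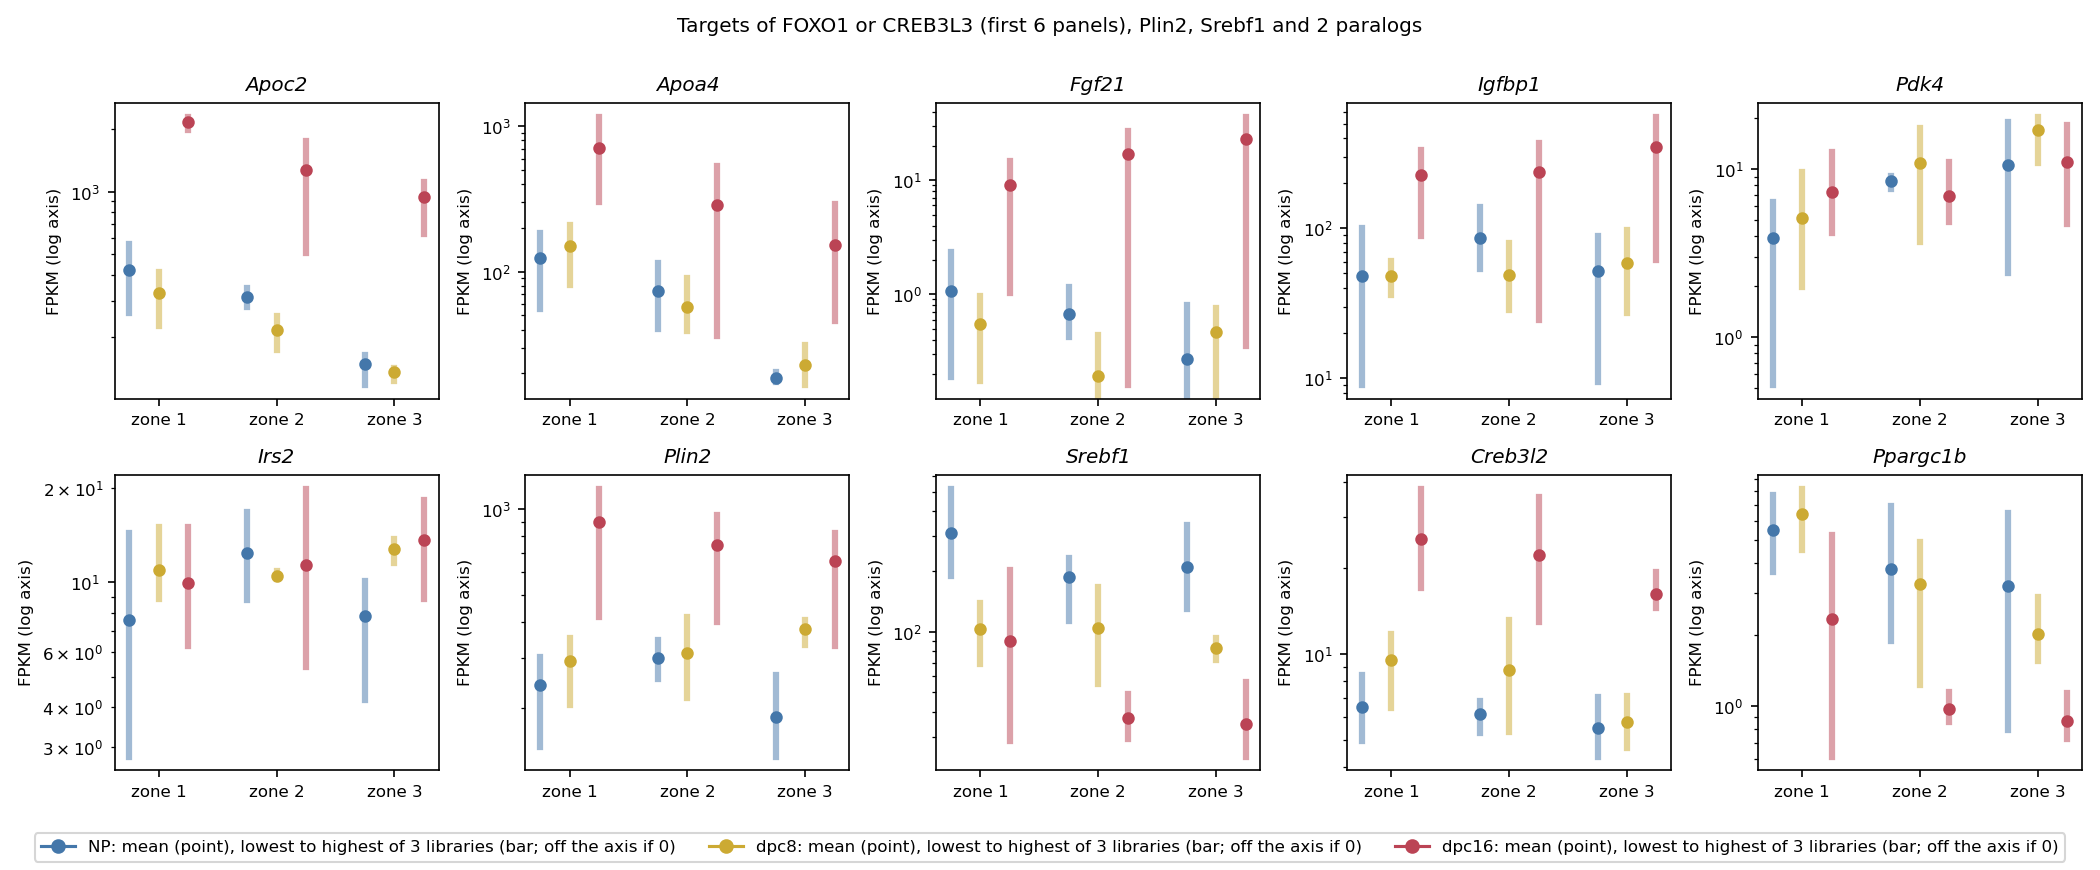
FPKM (log axis) by zone (horizontal axis) and stage (colour) for the 6 targets of FOXO1 or CREB3L3, for Plin2 and Srebf1, and for the paralogs Creb3l2 and Ppargc1b. Points are means and bars run from the lowest to the highest of 3 libraries, leaving the axis where a library is at 0. Apoc2 and Creb3l2 at dpc16 stand clear of NP in every zone, the means of Srebf1 are lower at dpc16 than at NP in every zone, and Irs2 and Pdk4 overlap between NP and dpc16 in every zone.

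The members differed in how they varied between libraries of the same group. The lowest value of a group was most often that of its Y-positive library: of the 8 members, 4 were lowest there in zone 1 and 7 in zone 3 at NP, 6 in zone 1 and 6 in zone 2 at dpc8, and 8 in each of the 2 groups at dpc16. In zones 2 and 3 at NP and dpc8, replicate 1 was the highest of its group in all 4 groups for 5 of the 8 members, Pck1, G6pc, Pcx, Creb3l3 and Foxo1, for example 2196 FPKM of Pck1 in NP zone 2 against 655 and 596.

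Genes of the circadian clock also differed inside groups. The difference log2(Dbp + 1) minus log2(Arntl + 1), between 2 clock genes of opposite phase, ran from -3.47 to 6.52 at NP, from 1.68 to 5.93 at dpc8 and from 1.83 to 6.32 at dpc16. At NP it was negative in replicate 2 of each zone and in zone 2 replicate 3, and positive in the other 5. Of 12 clock genes 0 were called in the averaged comparisons of zones and of stages with NP. With this difference as a covariate, chosen after seeing the data, the same 5 members were called between zones 1 and 3 and Ppargc1a at dpc16.

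**Figure D5:**
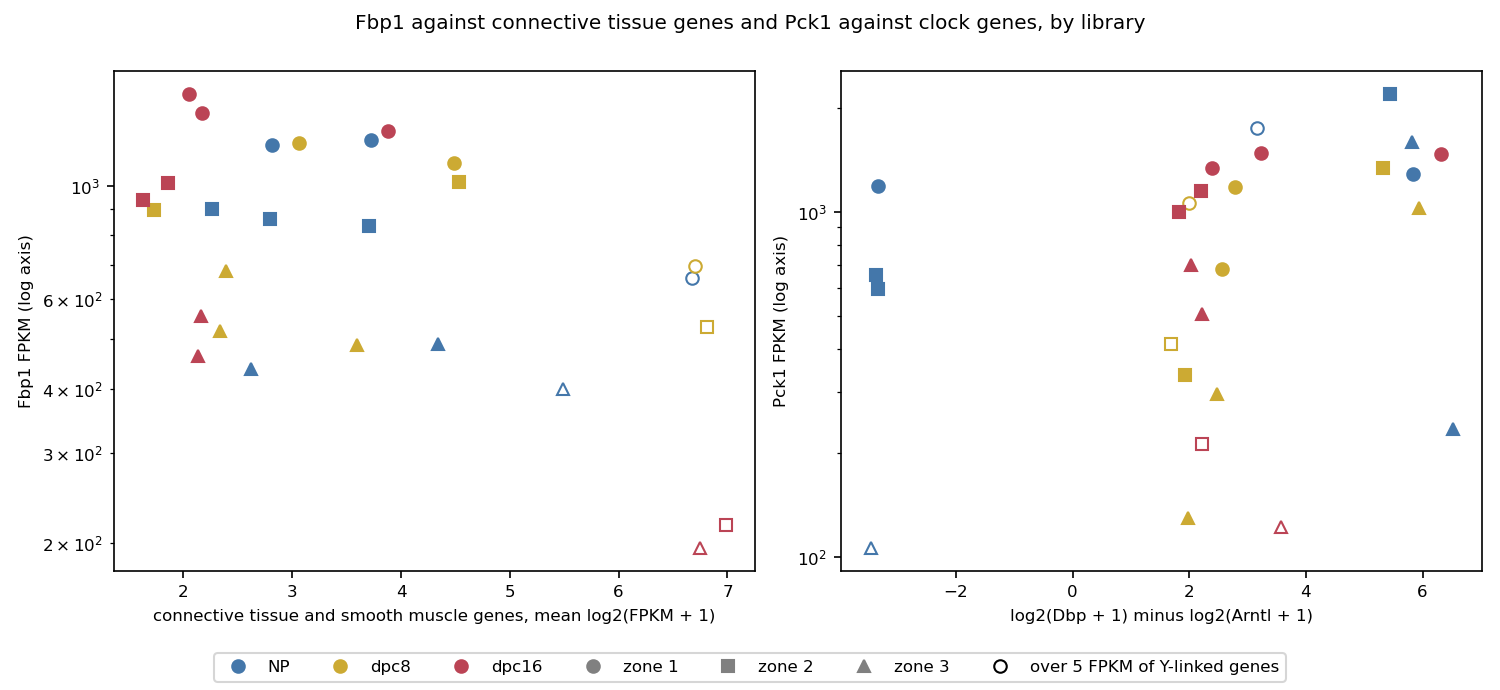
Left, FPKM of Fbp1 (log axis) against the mean log2(FPKM + 1) of 12 connective tissue and smooth muscle genes in each library. Right, FPKM of Pck1 (log axis) against log2(Dbp + 1) minus log2(Arntl + 1). Colours give the stage, shapes the zone and open symbols the Y-positive libraries, which lie at connective tissue values of 5.49 or more, and 4 NP libraries lie below 0 on the clock axis.

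The genes whose log2 values followed each member most closely over the 27 libraries were taken as a description, with Pearson's r. These r values share zone, stage and library composition. Fbp1 was followed by Slco2a1 (0.95) and Asl (0.94), a urea cycle enzyme. Pck1 was followed by Mfsd2a (0.91), P2ry2 (0.84) and Trib1 (0.83), and G6pc by Amdhd1 (0.83), Pck1 itself (0.83) and Proser2 (0.81). Slc37a4 was followed by Atp5a1 (0.91), Slc2a2 (0.86), the hepatocyte glucose transporter, and Fbp1 (0.85). Ppargc1a went with Slc7a2 (0.84), Fam13a (0.83) and Ass1 (0.81), another urea cycle enzyme. Pcx went with Prox1 (0.92), Clu (0.90) and Cfb (0.90), Creb3l3 with H6pd (0.93), Mgll (0.93) and Klf9 (0.92), and Foxo1 with Hipk1 (0.89), Pim3 (0.86) and Zbtb16 (0.86). Among the members themselves r ranged from 0.07 (Ppargc1a with Creb3l3) to 0.85 (Slc37a4 with Fbp1).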

How the data were processed

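RNA of microdissected liver zones was sequenced as 27 libraries, 3 for each of 9 groups of stage and zone. The authors trimmed the reads with cutadapt, aligned them to mm10 with HISAT2 2.1.0 and deposited FPKM values of protein-coding GENCODE genes, computed with Cuffdiff of Cufflinks 2.2.1. Whether counting used strand is not given in the sources used here, so a gene and an overlapping antisense gene cannot be told apart. FPKM are not counts. Depth was estimated from the steps between low values, of which 92.96 to 97.99% per library lay within 0.1 of whole reads, and 1 read at 1 kb was worth 0.03 to 0.1328 FPKM.

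Genes with at least 1 FPKM in at least 3 libraries were kept (12952 of 21823). Values were analysed as log2(FPKM + 1) with limma 3.58.1 in R 4.3.3: all 9 group means in a single model, a variance trend, robust moderation, 20 comparisons, two-sided tests and Benjamini-Hochberg adjustment over all genes of a comparison at 0.05. The gene lists and the rule for the genes named (all 8 members, at most the 4 list genes with the lowest adjusted p per list and comparison, and the 3 genes closest to each member) were set together with the tests, and Gapdh, Slc25a10, Fasn and Angptl4 and the list genes named as not passing were added after their values were seen. Results for 3 further genes are not reported here. The members and lists were chosen with earlier results of these data known. Alternatives were another pseudocount (0.1), no filter, quantile normalization, array weights, only the groups compared, replicate numbers as a block, covariates for connective tissue and for the clock, and leaving out each library or all libraries with more than 5 summed Y-linked FPKM. Scripts were tested on simulated data.

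Deviations from the group means of libraries with the same number were correlated at dpc16 in all 9 pairs of zones (0.263 to 0.863), but exceeded 0.1 in 4 of 9 at NP and 5 of 9 at dpc8, and in 11 of 27 pairs between stages. Taken group by group, all 3 correlations were over 0.1 also between zones 2 and 3 at dpc8 (0.322 to 0.355), and between NP and dpc8 in zone 1 (0.268 to 0.679) and in zone 3 (0.105 to 0.212). The numbers were therefore treated as pairing all zones at dpc16 and these 3 pairs of groups. The highest value at dpc16 was 0.863, between zones 2 and 3 in replicate 3. Between stages it was 0.679, between NP and dpc8 of zone 1 in replicate 1. Each of these joined 2 Y-positive libraries. Such correlations cannot tell libraries of the same mouse from libraries that share their composition.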

Additional observations from a re-analysis of the deposited data

How the results depend on the processing

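Over the 9 other settings, 359 values of single members kept their direction and call, 19 passed the threshold only there, 10 lost it and 17 turned in direction. Of members called between zones 1 and 3 over the stages, 5 in the report, 4 passed with quantile normalization (Ppargc1a was lost), 3 with no filter on low values (Slc37a4 and Ppargc1a were lost) and 3 without the Y-positive libraries (Pck1 and Ppargc1a were lost). Member counts below that exceed those of the report went with larger shares of all genes called, except with quantile normalization. Within NP the count went from 0 to 1 with quantile normalization, array weights, the replicate block, the connective tissue covariate or without the Y-positive libraries (1.3 to 2.42% of all genes). Within dpc8 it went from 0 to 2 with array weights and to 1 with the block, the connective tissue covariate or without the Y-positive libraries (2.15 to 6.6%). Within dpc16 it went from 1 to 3 with array weights (3.83%), 2 with the block (2.65%) or without the Y-positive libraries (2.82%), and 0 when only the groups compared were fitted. Between zones 1 and 2 it was 1 in place of 0 without the Y-positive libraries or with the connective tissue covariate (1.49 to 1.55%), and between zones 2 and 3 it was 3 with array weights and 1 with quantile normalization, the block, the connective tissue covariate or without the Y-positive libraries (1.63 to 4.81%). For dpc16 against NP over the zones, 1 in the report, it was 2 with array weights (22.4%), with the connective tissue covariate (20%) or without the Y-positive libraries (17.9%), 2 of 8 being near these shares, and 0 with no filter, quantile normalization, only the groups compared or the block. Array weights gave 1 in place of 0 for dpc16 against NP in zones 2 and 3 and for dpc16 against dpc8 in zones 1 and 3 and over the zones, the last also without the Y-positive libraries. The replicate block changed no other count of members. The cause of these changes was not tested.

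Directions turned as follows. Without the Y-positive libraries, Creb3l3 between zones 1 and 3 was -0.0101. For dpc8 against NP, Slc37a4 was -0.0485 and Creb3l3 -0.0468 with the clock covariate, Creb3l3 was -0.0223 with quantile normalization, and Pcx was 0.0469 with array weights, 0.0278 without the Y-positive libraries and 0.0094 with the connective tissue covariate. For dpc16 against NP, with array weights Pck1 was 0.27, G6pc 0.22, Slc37a4 0.0415, Fbp1 0.15 and Foxo1 0.0599, without the Y-positive libraries Pck1 was 0.11, G6pc 0.40, Fbp1 0.17 and Foxo1 0.0363, and Pcx was -0.0141 with the connective tissue covariate.

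Leaving out 1 library at a time, the members called between zones 1 and 3 numbered 2 to 5 over the stages and 0 to 1 at dpc16, between zones 2 and 3 0 to 2, and for dpc16 against NP and against dpc8 over the zones 0 to 1 each. For dpc16 against NP the difference ranged from -0.45 to 0.19 for Pck1, -0.41 to 0.14 for G6pc, -0.33 to 0.0269 for Slc37a4, -0.23 to 0.14 for Fbp1, -0.0121 to 0.33 for Pcx and -0.14 to 0.13 for Foxo1, and for Creb3l3 in zone 2 from -0.0418 to 1.06. For dpc8 against NP it ranged from -0.45 to 0.0124 for G6pc, -0.0453 to 0.23 for Slc37a4, -0.0382 to 0.15 for Fbp1, -0.12 to 0.13 for Pcx, -0.12 to 0.11 for Creb3l3 and -0.27 to 0.0095 for Foxo1. Creb3l3 between zones 1 and 3 ranged from -0.0213 to 0.23. With 3 libraries a group, the SE of a single-stage zone difference was 0.88 for Pck1 and 0.72 for G6pc, and differences of 2.02 (Pck1 at NP) and 2.09 (G6pc at dpc16) did not pass.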
